A study of Homo sapiens with 24 samples.

Results

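SW1736, a human thyroid carcinoma cell line labelled as carrying BRAFV600E, was profiled before and after 1 h of vemurafenib, a drug that inhibits mutant BRAF kinase. The comparison took the 3 arrays titled for SW1736 at 1 h and the 3 titled for untreated SW1736 at 0 h, 6 of the 24 arrays in the series, and covered all 13699 genes that could be tested. Both groups were grown in serum-containing medium, both carry BRAFV600E, and the drug dose was 2 µM. The remaining arrays held SW1736 at 6 h and 48 h of the same dose and the melanoma line SKMEL28, also labelled BRAFV600E, at the same 4 times, with 3 arrays per group. The 0 h cells are labelled untreated. No group of cells held for 1 h without drug is named, so the drug and the handling that came with it cannot be told apart, and each line is 1 cell line, not a panel. The labels do not state how replicates were obtained (separate cultures or repeats of one), so p-values measure the spread between these arrays, which may be technical. RNA level was read as the signal of bead-bound probes, and all levels below are log2 normalized signals, on which a difference of 1 is a doubling.

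BRAF sits in the cascade that passes signal from RAS to MEK and then to ERK, and BRAFV600E drives it without an upstream signal. ERK in turn induces short-lived transcripts, among them transcription factors of the immediate-early class and inhibitors that feed back on the cascade: the DUSP phosphatases remove the activating phosphates from ERK, and Sprouty and SPRED proteins act between receptor, RAS and RAF. Because many of these messenger RNAs are unstable, their levels can follow the kinase within a short time. The title of the series concerns relief of feedback on HER3, the receptor encoded by ERBB3, in BRAF mutant thyroid carcinoma, and the 1 h samples show which transcripts had already moved by that time.

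The untreated and 1 h arrays of SW1736 detected between 17369 and 18917 of 47231 probes, with the lowest number on replicate 3 at 1 h and the highest on replicate 1 at 0 h. Within each of these groups the arrays correlated with each other at a mean r of 0.98 over the 13699 genes tested. The spread was larger in SW1736 than in SKMEL28, with a median residual SD of 0.279 against 0.18, and the number of arrays limits the precision: the median standard error of a 1 h difference in SW1736 was 0.22. Of 10 thyroid follicular markers on the array, the transcription factors FOXE1, HHEX and PAX8 were detected on all 6 arrays. NKX2-1, also a transcription factor of the lineage, was detected on none. Nor were TG, TSHR, SLC5A5, DIO1 and SLC26A4, which include thyroglobulin, the thyrotropin receptor and the iodide carriers. Epithelial keratins (KRT7, KRT8, KRT18, KRT19) and mesenchymal genes (VIM, FN1, CDH2, SNAI2) were detected together on all 6. In all, 7 of 11 epithelial and 8 of 11 mesenchymal markers were. Detected on none were EPCAM, CLDN4 and OCLN of the epithelial list and ZEB1 and TWIST1 of the mesenchymal list. Among markers of other cells, MITF and MC1R of the melanocyte list and CD14, CD68 and HLA-DRA of the immune list were detected on all 6 arrays, while TYR, MLANA, SOX10, PTPRC, CD3E and 6 of 8 endothelial markers, VWF, CDH5 and KDR among them, were not detected on any. No tested gene of these marker lists passed at 1 h. Tested were 6 of 11 thyroid, 5 of 10 immune and 2 of 8 endothelial markers. Of the epithelial, mesenchymal and melanocyte lists, 10 of 11 each were tested.

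The promoters of DUSP6, SPRY2 and PHLDA1 are given first, since these genes passed the test for a difference at 1 h and all moved in 1 direction. Each is the 250 bases before the start of the gene in RefSeq (GRCh38.p14), all on the minus strand, from chr12:89352502-89352751, chr13:80341127-80341376 and chr12:76031777-76032026.
DUSP6: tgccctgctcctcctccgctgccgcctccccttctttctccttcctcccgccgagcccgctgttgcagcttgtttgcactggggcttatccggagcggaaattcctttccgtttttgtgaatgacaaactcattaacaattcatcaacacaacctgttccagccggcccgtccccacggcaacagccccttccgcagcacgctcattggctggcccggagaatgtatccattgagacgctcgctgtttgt
SPRY2: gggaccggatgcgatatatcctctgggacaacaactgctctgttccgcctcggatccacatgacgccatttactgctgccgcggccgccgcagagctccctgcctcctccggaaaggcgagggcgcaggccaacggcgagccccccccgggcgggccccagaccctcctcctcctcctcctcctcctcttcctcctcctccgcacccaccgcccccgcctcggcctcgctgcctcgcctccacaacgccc
PHLDA1: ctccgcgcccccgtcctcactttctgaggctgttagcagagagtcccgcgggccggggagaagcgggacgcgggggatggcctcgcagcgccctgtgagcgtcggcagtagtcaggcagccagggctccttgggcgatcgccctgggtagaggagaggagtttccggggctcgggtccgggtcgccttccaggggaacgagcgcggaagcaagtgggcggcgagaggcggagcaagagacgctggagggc
Both strands were searched for an ETS motif (CCGGAAG), an AP-1 motif (TGANTCA), a cyclic AMP response element (TGACGTCA), an E-box (CACGTG), the CArG box and the NF-kB motif, none of which is part of another. No capitals appear because none of the 6 motifs occurs in these windows, which says nothing beyond these letters. Over the 10873 tested genes with a promoter in the table, the ETS letters were present in 14.8% of the same window, AP-1 in 4.18%, the cyclic AMP element in 2.86%, the E-box in 8.71%, the CArG box in 1.01% and NF-kB in 5.85%.

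In SW1736, 4 genes of 13699 passed the test at 1 h (limma on the 12 SW1736 arrays, Benjamini-Hochberg adjusted p under 0.05, 0.0292% of the genes tested), and all 4 fell. They were DUSP6, the cytoplasmic phosphatase specific for ERK, SPRY2, a Sprouty inhibitor of receptor signalling to ERK, PHLDA1, a pleckstrin-homology protein that is a common ERK target, and MYC, the growth-promoting transcription factor. In each of them the signal at 1 h was 29.5% to 40.4% of the untreated level. No gene that was higher passed, although 284 genes were higher and 352 lower at an unadjusted p under 0.05, 636 in all or 4.64% of the genes tested. The median difference over all genes was 0.00, and 22 genes were lower by at least 1 on the log2 scale against 2 higher.

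DUSP6 had untreated levels of 8.03, 8.06 and 8.22 and 1 h levels of 5.87, 6.53 and 6.62. The groups were well apart, and the 1 h arrays varied more among themselves than the untreated ones, with replicate 1 the lowest. The difference was -1.76 ± 0.22 (SE, n = 3 per group, 95% interval -2.24 to -1.29), a 3.39-fold fall with a limma adjusted p of 0.00746. A second probe of DUSP6 was not detected on any of the 6 arrays. As the RNA came from whole cultures, fewer expressing cells and less RNA per cell cannot be told apart.

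SPRY2 levels were 11.09, 10.66 and 11.13 without drug and 9.46, 9.57 and 9.55 after 1 h. Every treated array lay below every untreated one, and the treated arrays were close to each other. It fell by 1.43 on the log2 scale (SE 0.18, n = 3 per group, interval -1.81 to -1.06), or 2.7-fold, with a limma adjusted p of 0.00746. SPRY2 was the call that held most often: it passed in 18 of 22 alternative settings. These include the 6 fits with 1 array left out, of which it passed in 4.

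PHLDA1 levels were 11.79, 11.78 and 11.87 untreated and 10.69, 10.42 and 10.28 at 1 h. Its untreated arrays were nearly equal and its groups did not overlap. The fall was 1.35 on the log2 scale, from 11.81 ± 0.05 to 10.47 ± 0.21 (mean ± SD, n = 3), with a limma adjusted p of 0.0193. The other PHLDA1 probe, detected on all 6 arrays, gave a smaller difference of -0.53 that did not pass.

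MYC read 10.58, 10.63 and 10.38 in untreated cells and 9.22, 9.17 and 9.28 at 1 h. The treated arrays were close together and lay more than a full log2 unit below the untreated ones. The difference was -1.31 ± 0.20 (SE, n = 3 per group, interval -1.73 to -0.89), with a limma adjusted p of 0.0282. A second MYC probe, also detected on all 6 arrays, gave -1.13. When probes were counted singly neither passed, with limma adjusted p-values of 0.0505 for the first and 0.215 for the second, so the MYC call was lost there.

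These calls rest on few arrays. Leaving out 1 array lowered the count of 4 to 0 without replicate 1 or replicate 3 of 0 h, to 1 without replicate 2 of 0 h, to 3 without replicate 1 of 1 h, and to 2 without replicate 2 or replicate 3 of 1 h. MYC passed in none of those 6 fits, PHLDA1 in 1 and DUSP6 in 3. The values moved less than the calls: over 22 alternative settings SPRY2 lay between -1.58 and -1.31, MYC between -1.41 and -1.17, PHLDA1 between -1.46 and -0.94 and DUSP6 between -1.90 and -1.01. With 1 spread shared by both cell lines, which sets the standard errors of SW1736 partly from the tighter SKMEL28 arrays, 24 genes were lower (0.175% of those tested) and 5 higher. With a variance weight for each line the count was 7, adding MIR221, PDE4B and SPRY4 to the 4.

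**Figure D1:**
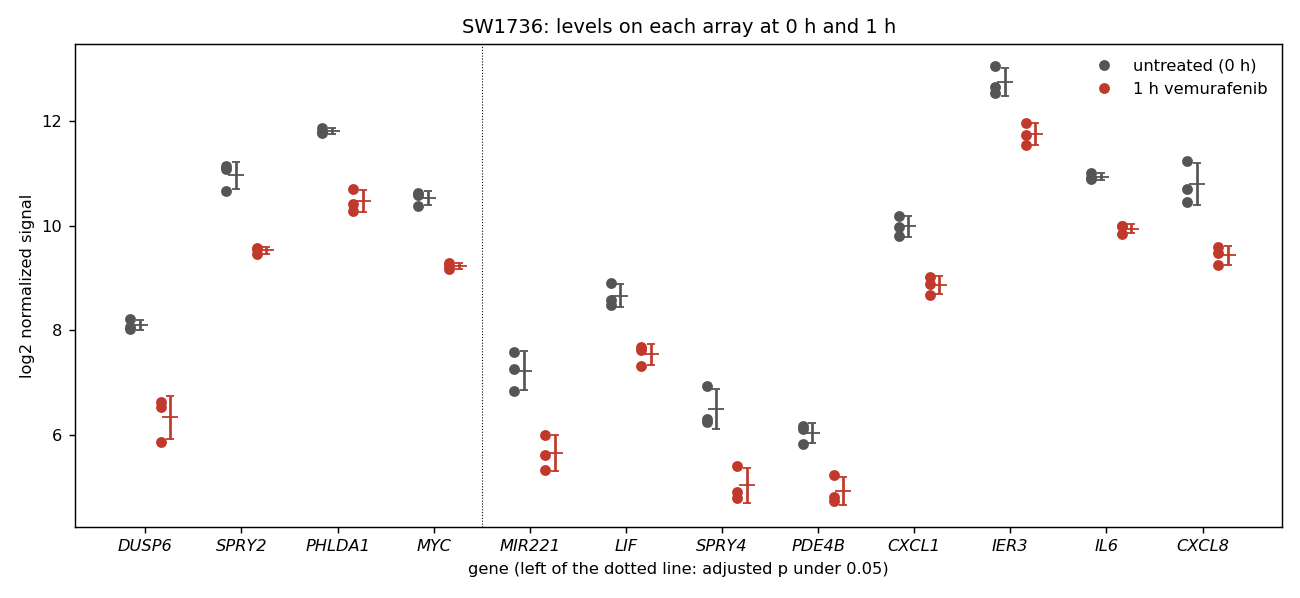
Log2 normalized signal (y axis) of 12 genes (x axis) on each SW1736 array at 0 h (grey) and 1 h (red), with mean and SD beside the 3 points. The 4 genes left of the dotted line passed the test; the groups do not overlap for any gene drawn.

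**Figure D2:**
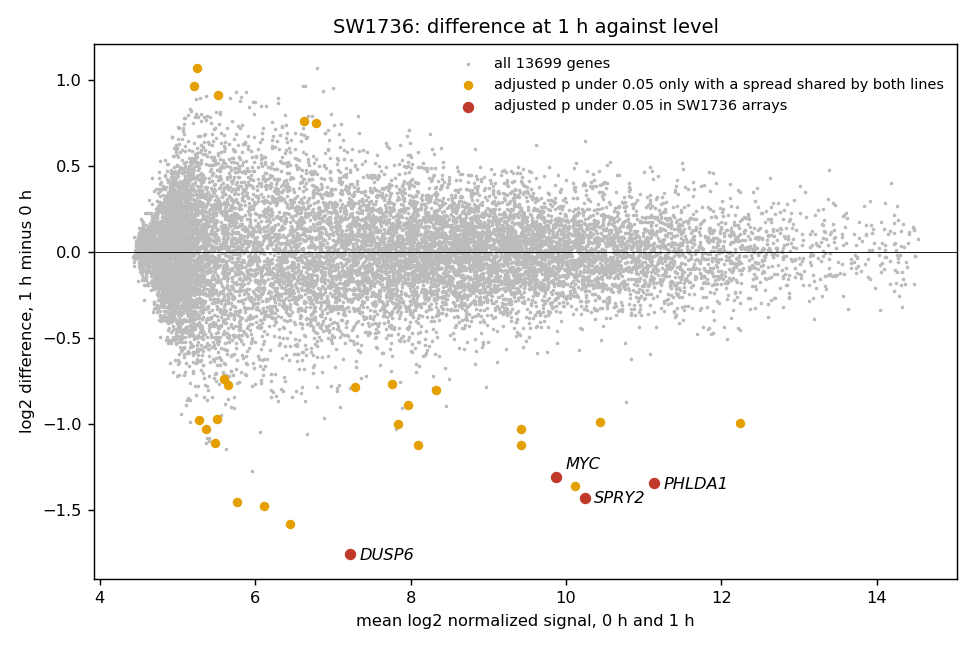
Log2 difference at 1 h (y axis) against mean log2 signal (x axis) for all genes tested in SW1736, grey. Red marks the 4 genes that passed and orange those that passed only with a spread shared by both lines; 22 genes lie at or below -1 and 2 at or above 1.

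The Sprouty and SPRED inhibitors were the list with the lowest median at 1 h, -0.85 over 6 tested members against 0.00 over all genes. They had 1 lower call and none higher. At an unadjusted p under 0.05, 4 members were lower and none higher, against 352 lower and 284 higher of all 13699 genes tested. The same all-gene counts apply to each list below. SPRY4, a further Sprouty, had 6.93, 6.31 and 6.24 untreated and 5.41, 4.91 and 4.79 at 1 h, where it was not detected on any array. That makes it at least 2.12-fold lower at 1 h, and it did not pass (limma adjusted p = 0.104). The other SPRY4 probes were detected on at most 1 of the 6 arrays and gave -0.02, 0.03 and -0.18. Over the alternative settings the SPRY4 difference lay between -1.64 and -0.53. SPRY1 had a difference of -0.999 ± 0.23 (SE, n = 3 per group) with no overlap between groups and a limma adjusted p of 0.363. Of its other probes, 1 was detected on all 6 arrays and gave -0.67, and 1 was detected only at 1 h and gave 1.08. The mean of the probes gave -0.20. SPRED1 and SPRED2, which hold back RAS by recruiting neurofibromin, gave 0.19 and 0.11, with 95% intervals of -0.27 to 0.64 and -0.28 to 0.50, so a halving of either was outside the interval at this time.

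The MAP kinase phosphatases had a median of -0.42 over 10 tested members, with DUSP6 the only call. DUSP5, a nuclear phosphatase of ERK, went from 9.12 ± 0.19 to 8.55 ± 0.20 (mean ± SD, n = 3) with no overlap, a difference of -0.57 that did not pass (limma adjusted p = 0.894). DUSP4, another nuclear member, had overlapping groups and a difference of -0.81 ± 0.40 (SE). At the other end, DUSP2 gave 0.46.

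No transcription factor of the ETS or the AP-1 and ATF lists passed. ETV4 and ETV5, PEA3-type ETS factors that report ERK output, gave 0.02 and 0.09, with intervals of -0.45 to 0.48 and -0.32 to 0.49. ETV5 read 10.22, 9.86 and 10.19 untreated and 10.27, 9.98 and 10.29 at 1 h, so the arrays of the groups lay among each other. The ETS list of 14 tested genes had a median of 0.05 and no calls, with no member lower and 1 higher at an unadjusted p under 0.05. FOSL1, an AP-1 subunit stabilised by ERK, had 9.43, 9.39 and 9.48 untreated and 8.58, 8.94 and 8.85 at 1 h, groups that did not overlap, and a difference of -0.64 that did not pass (limma adjusted p = 0.564). JUN gave -0.65 and FOSB 0.69, neither passing. The AP-1 and ATF list of 9 tested genes had a median of 0.14, with 2 lower and 1 higher at an unadjusted p under 0.05. EGR1, an immediate-early zinc-finger factor, had 7.27, 7.49 and 6.91 untreated and 7.33, 6.78 and 6.12 at 1 h, which overlap, and a difference of -0.48 ± 0.31 (SE). FOS was not detected on any of the 6 SW1736 arrays.

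Among the other early genes and ERK outputs, the calls came to 1 of 30 and 1 of 26 tested members, and both are PHLDA1, which stands in both lists. The ERK output list had a median of -0.21, with 8 members lower and none higher at an unadjusted p under 0.05. Of all 13699 genes, 352 were lower and 284 higher at that p. LIF, a cytokine of the interleukin 6 family, was the nearest gene short of the threshold together with MIR221, at 8.49, 8.59 and 8.91 untreated and 7.32, 7.69 and 7.62 at 1 h. Its groups did not overlap, and its difference was -1.12 ± 0.19 (SE, n = 3 per group; limma adjusted p = 0.0857). PDE4B, a cyclic AMP phosphodiesterase, had 1 probe that was detected on all 3 untreated arrays and none at 1 h, at least 1.55-fold lower (limma adjusted p = 0.104). Its other probes did not show this: 1 was detected on a single 1 h array and gave 0.62, the rest were not detected, and the mean of the probes gave -0.25. IER3, an early gene that modulates ERK dephosphorylation, read 12.65, 13.05 and 12.53 against 11.96, 11.73 and 11.54, with a difference of -0.99 that did not pass (limma adjusted p = 0.271). The glucose transporter gene SLC2A3 gave -0.77, the G-protein regulator RGS4 -1.03 and the matricellular gene CCN1 -1.03, each with groups that did not overlap and none passing.

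MIR221, the gene of a microRNA that targets cell cycle inhibitors such as CDKN1B, had 7.26, 7.59 and 6.85 untreated and 5.62, 6.01 and 5.32 at 1 h. The groups were apart by more than their own spread, although the probe was detected on only 2 of the 3 treated arrays. The difference was -1.58 ± 0.27 (SE, n = 3 per group), the second largest in size after DUSP6, with a limma adjusted p of 0.0857. Whether the probe reads the primary or the mature RNA is not given in the sources used here. The mature products are shown for what the gene encodes, together with those of its neighbour MIR222, for which no value is given: miR-221-3p at chrX:45746180-45746202, miR-222-3p at chrX:45747036-45747056 and miR-222-5p at chrX:45747073-45747094, all on the minus strand (RefSeq, GRCh38.p14). Capitals mark the seed, bases 2 to 8, which is the same in miR-221-3p and miR-222-3p.
hsa-miR-221-3p: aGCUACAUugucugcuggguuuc
hsa-miR-222-3p: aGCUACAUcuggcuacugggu
hsa-miR-222-5p: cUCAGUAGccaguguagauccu
The remaining 12 tested members of the microRNA and long noncoding RNA list had values between -0.47 and 0.47. Outside that list, MIR635 was detected on all 3 untreated arrays and none at 1 h, at least 1.46-fold lower (limma adjusted p = 0.288). MIR638, named after its values were seen, had the same pattern and was at least 1.28-fold lower (limma adjusted p = 0.388). Neither passed, and MIR638 passed with the shared spread.

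Secreted inflammatory genes held several of the lowest values without a call. The list of chemokines, cytokines and NF-kB targets had a median of -0.14 over 21 tested members. At an unadjusted p under 0.05, 6 were lower and none higher, against 352 lower and 284 higher of all 13699 genes. CXCL8, the neutrophil chemokine interleukin 8, read 11.23, 10.71 and 10.46 untreated and 9.47, 9.58 and 9.24 at 1 h, a difference of -1.36 ± 0.30 (SE, n = 3 per group; limma adjusted p = 0.288). CXCL1, a chemokine for the same receptor, read 9.98, 10.18 and 9.79 against 8.89, 8.68 and 9.02, with -1.12 and a limma adjusted p of 0.124. IL6 was at 11.01, 10.89 and 10.90 against 10.00, 9.99 and 9.84. Its replicates were close together in both groups and the groups did not overlap, but its difference of -0.99 did not pass (limma adjusted p = 0.275). CSF3, the granulocyte growth factor, gave -1.48 and was detected on 1 of 3 treated arrays. All 4, and LIF, were among the 24 lower genes under the shared spread.

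No call fell in the ERBB receptors and ligands (12 tested, median -0.15, with 2 lower and none higher at an unadjusted p under 0.05). ERBB3, which encodes HER3, read 8.48, 8.49 and 7.77 untreated and 8.22, 8.28 and 7.79 at 1 h, overlapping groups with a low replicate 3 in each. Its difference of -0.15 had an interval of -0.65 to 0.35, so a doubling at 1 h was outside it. ERBB2, its partner, gave -0.19 (-0.60 to 0.22), and EGFR gave 0.05 (-0.37 to 0.47). The lowest value of this list was the ligand HBEGF at -0.72, with overlapping groups.

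Downstream programmes also had no calls at 1 h. CCND1, the D cyclin that ERK promotes in G1, read 13.36, 13.48 and 12.83 untreated and 13.23, 13.04 and 12.83 at 1 h, a difference of -0.19 (interval -0.63 to 0.25). The medians of the S phase genes (25 tested), ribosome biogenesis genes (23), interferon response genes (24), amino acid and ER stress genes (22) and ribosomal proteins (25) were -0.07, -0.10, 0.00, 0.07 and 0.06, and over these 5 lists the unadjusted p was under 0.05 for 1 gene lower, IRF7, and 1 higher, UTP4. The Notch target HES1 gave -1.06 and the BMP feedback gene SMAD7 -0.84, each with groups that did not overlap and neither passing. In the glycolysis and hypoxia list VEGFA, the angiogenic growth factor, gave -0.91 with overlapping groups.

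The genes named here had the highest differences at 1 h among those whose groups did not overlap. They also had to be detected on at least 2 of 3 arrays of the higher group. A gene outside these conditions was left out whatever its difference, so non-overlap is no result here. None of the genes named passed, and they were mostly of 2 kinds. RAP2C-AS1, at 0.93, was of neither, being detected on 1 of 3 untreated arrays and on all 3 at 1 h. Some were detected on all 6 arrays: ARLN had 0.97, APOOL 0.97, FKBP1AP1 0.96 and ZNF256 0.94, with limma adjusted p-values from 0.532 to 0.894. Others were not detected without drug. BDKRB2, the bradykinin B2 receptor, read 4.71, 4.84 and 4.61 untreated, where it was not detected, and 5.96, 5.88 and 5.52 at 1 h, where it was detected on all 3 arrays. This is at least 1.37-fold higher, and it did not pass (limma adjusted p = 0.309). MSS51 and SPMIP4, likewise not detected at 0 h, were at least 1.56-fold and 1.29-fold higher, both with a limma adjusted p of 0.124. Of all genes tested, 656 had every 1 h array above every untreated array (4.79%) and 740 had every 1 h array below (5.4%).

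**Figure D3:**
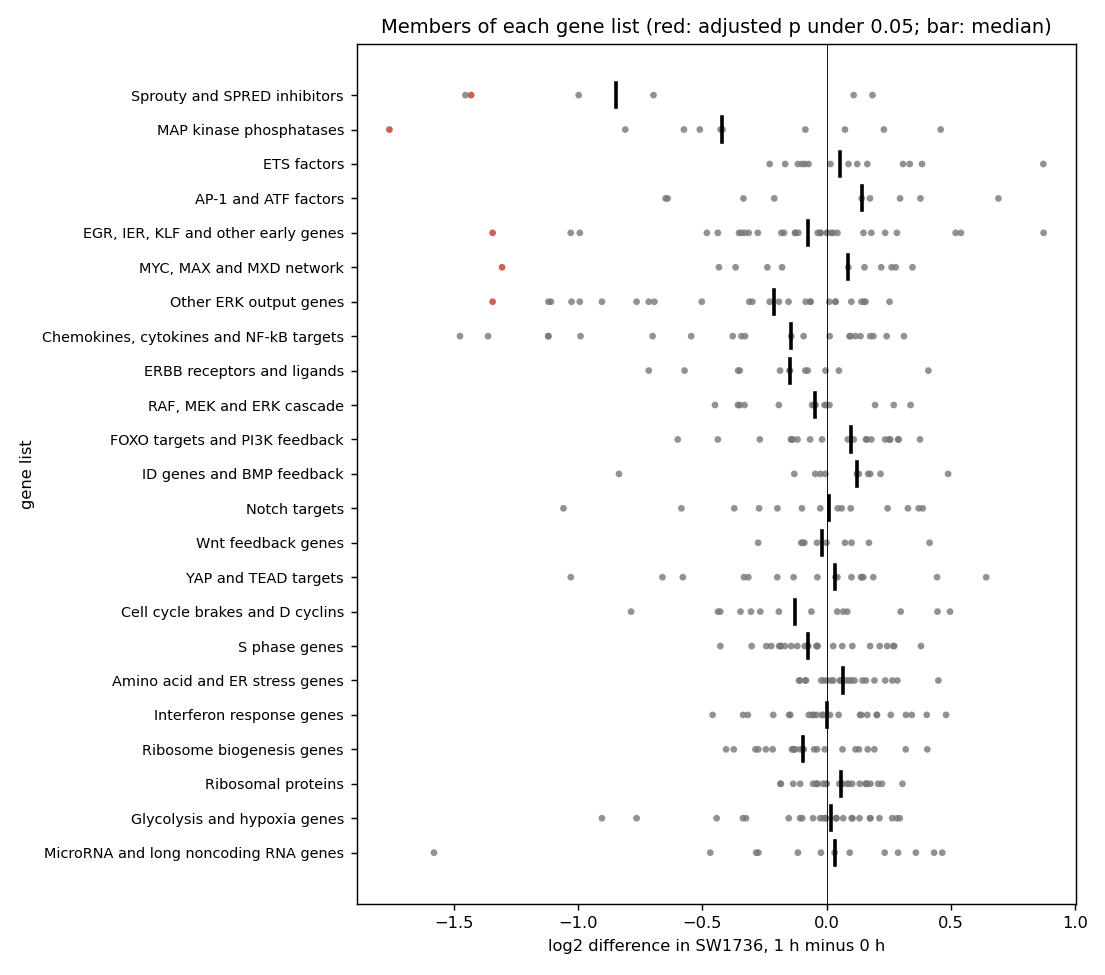
Log2 difference at 1 h in SW1736 (x axis) of the tested members of each gene list (y axis), with a bar at the list median and red for the members that passed. The Sprouty and SPRED list has the lowest median, -0.85; PHLDA1 is drawn in both lists that hold it.

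SW1736 later in treatment gives the context of the 1 h values. The 1 h, 6 h and 48 h differences share the untreated arrays, so they are given side by side only. DUSP6 was -1.76, -2.72 and -1.11 at the 3 times, MYC -1.31, -2.01 and -1.10, and PHLDA1 -1.35, -1.85 and -0.46. Each was lowest at 6 h. At that time DUSP6 was detected on 2 of 3 arrays, and SPRED2, given below, on 1 of 3, so these 6 h values lie near the detection limit. SPRY2 went from -1.43 at 1 h to -2.54 at 6 h and was 0.38 above the untreated level at 48 h, and SPRY1 had -0.999, -2.35 and 1.03. The PDE4B probe was not detected at 1 h or 6 h and was 1.20 above the untreated level at 48 h. A second set had most of its difference after 1 h: ETV5 was 0.09, -2.83 and -0.58, FOSL1 -0.64, -3.41 and -3.51, SPRED1 0.19, -1.61 and -0.10, and SPRED2 0.11, -1.49 and 0.15. CXCL1 had its lowest value at 1 h, with -1.12, -0.69 and 0.27. ERBB3 was -0.15, 0.68 and 0.43.

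**Figure D4:**
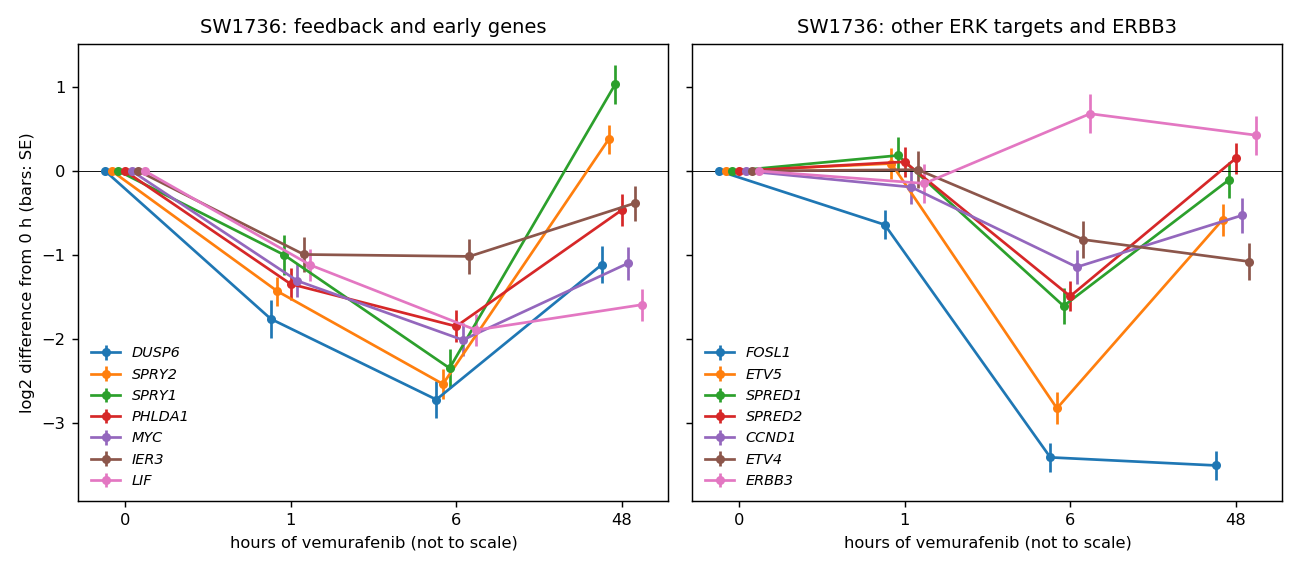
Log2 difference from the untreated SW1736 arrays (y axis, bars are SE, 3 arrays per group) at 0, 1, 6 and 48 h of vemurafenib (x axis, not to scale). DUSP6, SPRY2, PHLDA1 and MYC (left) are below 0 at 1 h and lower at 6 h, whereas ETV5, SPRED1, SPRED2 and ETV4 (right) are near 0 at 1 h and below it at 6 h.

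SKMEL28, fitted on its own 12 arrays, shares no array with SW1736 and so offers an independent set of genes. It had 34 calls at 1 h (0.248% of the genes tested), 28 lower and 6 higher. All 4 SW1736 genes were among its lower calls, 100% of the SW1736 list and 11.8% of the SKMEL28 list. Of the 28 genes that fell in SKMEL28, 20 had lower values in SW1736, where the median difference over all genes was 0.00. In 13 of the 28, all 3 treated SW1736 arrays lay below all 3 untreated ones, which is 46.4% against 5.4% of all genes. The 28 had a median difference of -0.46 in SW1736 and -0.93 in SKMEL28, and 3 of them were not detected on any untreated SW1736 array. Of the 6 genes that rose in SKMEL28, 4 had higher values in SW1736, where about as many of all genes lay above 0 as below. In 2 of the 6, CITED2 and EFNA1, the groups did not overlap, against 4.79% of all genes with every 1 h array above. With so few genes, nothing further can be read from these counts.

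**Figure D5:**
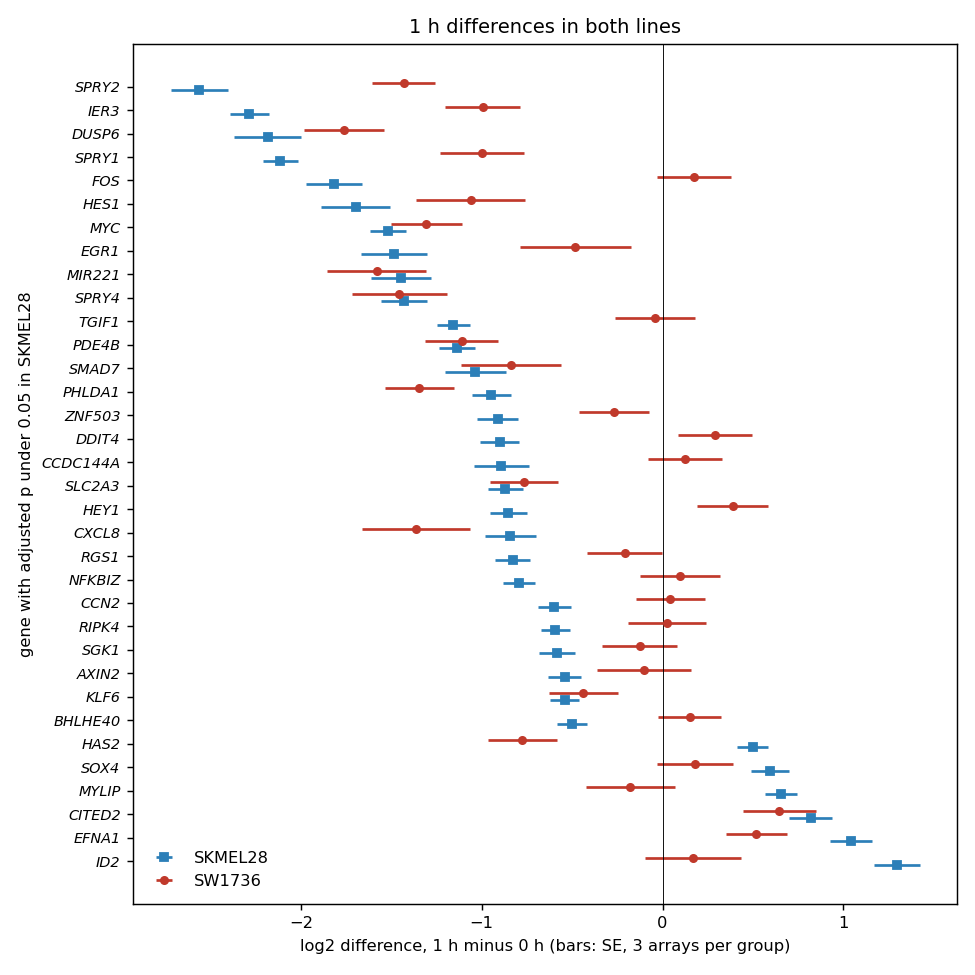
Log2 difference at 1 h (x axis, bars are SE, 3 arrays per group) of the 34 genes that passed in SKMEL28 (y axis), in SKMEL28 (blue squares) and SW1736 (red circles). SPRY4, PDE4B, FOS, CCDC144A and RGS1 were not detected at 1 h in SW1736, nor MIR221 at 1 h in SKMEL28. Their points there are the plain differences, not bounds. In SW1736, SPRY4 was at least 2.12-fold lower and PDE4B at least 1.55-fold lower. FOS and CCDC144A were not detected there at 0 h either, so a fall could not be read. FOS and HEY1 are below 0 in SKMEL28 and HAS2 above it.

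The size of the response was compared between lines in 1 fit over all 24 arrays. For the difference, 3 genes passed (0.0219% of those tested): FOS, HAS2 and HEY1. For the 4 genes that fell in SW1736 the difference between lines, SW1736 minus SKMEL28, was 0.42 for DUSP6 (interval -0.18 to 1.03), 0.21 for MYC (-0.24 to 0.66) and -0.40 for PHLDA1 (-0.84 to 0.05), none passing. For SPRY2, which fell by 2.56 on the log2 scale in SKMEL28, it was 1.13 (0.66 to 1.60) with a limma adjusted p of 0.124. IER3 was at -0.99 in SW1736 and -2.28 in SKMEL28, a difference of 1.29 with a limma adjusted p of 0.0528. HAS2, a hyaluronan synthase, read 6.11, 5.70 and 6.32 untreated and 5.25, 5.46 and 5.09 at 1 h in SW1736, where it was detected on 1 treated array, and rose by 0.50 in SKMEL28. The difference between lines was -1.27 ± 0.20 (SE; limma adjusted p = 0.0173), and it did not pass when the probes of the gene were averaged (-0.54) or in 8 of 12 fits without 1 array. FOS was not detected on any SW1736 array at 0 h or 1 h. HEY1 was detected on no untreated array by the probe used and on 1 of 3 by its other probe. For these genes a fall in SW1736 could hardly be read, so the test sets a fall in SKMEL28 against a signal at or near the detection limit and does not show that the lines respond differently.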

How the data were processed

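Total RNA of the 24 samples was hybridised to Illumina bead arrays as biotin-labelled cRNA, per the labels. The authors deposited an intensity (linear bead signal, not normalized between arrays) and a detection p-value for each of 47231 probes and array, per the file headers. Their own value table, which matched log2 values of the same arrays after normalization (every column's median is 6.90), was deposited without a stated method; Partek is named in the submitters' processing notes. Here the signals were background-corrected with normexp using detection p-values, raised by 16, quantile normalized over 24 arrays and taken to log2 (R 4.3.3, limma 3.58.1, statmod 1.5.0). The filter kept 26673 probes, those with a detection p below 0.05 on 3 or more of the 24 arrays, whatever their group. GEO's platform annotation gave 30113 probes 1 symbol, 8 several and 17110 none, and 30074 of the probes with 1 symbol matched a current gene. The brightest probe stood for each gene, on its mean over all arrays, leaving 13699. SW1736 and SKMEL28 were each fitted on 12 arrays with lmFit and eBayes, the difference between lines on all 24, with Benjamini-Hochberg adjustment over all genes. The scripts were tested on simulated data. A bound ("at least") compares the mean of the detected group with the lowest detectable signal. Named genes were every gene past the threshold, the 15 lowest and 10 highest with groups that do not overlap, a fixed list of ERK targets and ERBB genes, up to 4 members of each gene list with the smallest p, and genes differing between lines; fewer are printed. CITED2, EFNA1 and MIR638 were named after their values were seen. DUSP2 and RGS4 are printed too, though these rules did not select them. ETV1 and BRAF had no tested probe. The members and lists, and the choice to fit SW1736 on its own arrays, were made with earlier results of these data known. Figures were drawn with Python 3.11.15 and matplotlib 3.10.9.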

Additional observations from a re-analysis of the deposited data

Results flagged for a closer look

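The test of the difference in 1 h response between the lines (limma on 24 arrays, adjusted p) passed for 3 genes, of which only HAS2 was detected on all untreated arrays of both lines. FOS, an AP-1 subunit, had a difference of 1.99 (SW1736 minus SKMEL28, adjusted p = 0.00107); it fell by 1.82 on the log2 scale in SKMEL28 and was not detected on any SW1736 array at 0 h or 1 h. HAS2 had a difference of -1.27 (adjusted p = 0.0173), with -0.78 in SW1736 and 0.50 in SKMEL28. HEY1, a Notch target, had 1.24 (adjusted p = 0.0425), with 0.39 in SW1736, where its probe was detected on 1 of 6 arrays and its other probe on 3 of 6, and -0.85 in SKMEL28. With the SW1736 signals of FOS and HEY1 at or near the detection limit, these 2 values do not show that the lines respond differently. HAS2 passed in 14 of 27 alternative fits and HEY1 in 12 of 27.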

How the results depend on the processing

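The count of 4 genes in SW1736 became 9 without background correction, 11 on the authors' deposited values, 9 with a trended robust prior, 7 with a variance weight per line, 29 with a shared spread (5 of them higher), 2 at an adjusted p under 0.01 and 1 with the mean of a gene's probes. It was 0 with limma on the 0 h and 1 h arrays alone (723 genes at an unadjusted p under 0.05) and 0 without the third SW1736 arrays (757). Leaving out 1 array gave 0 to 3 calls; at 0 calls, 582 and 762 genes had an unadjusted p under 0.05 without replicate 1 and replicate 3 of 0 h. The other 10 of 25 alternatives stayed within 1.5 times the count. Same-numbered 0 h and 1 h arrays of SW1736 deviated together only weakly (r of 0.03, 0.01 and 0.08), so the numbers were not taken as pairs. With the replicate number as a fixed replicate block, 2 genes passed in SW1736 and 1 for the difference between lines; a random replicate block gave 4 in SW1736. The SKMEL28 count of 34 became 19 with median scaling, 15 with a 2-fold minimum, 57 with line weights and 21 on 0 h and 1 h arrays alone, and was 24 to 28 with 1 array left out. The 3 genes differing between lines became 11 without background correction, 12 on the authors' values, 7 with a trended prior, 6 with array weights, 5 with averaged probes and 5 without the third SW1736 arrays. They became 1 with median scaling, with the filter within each line, at an adjusted p under 0.01 and on 0 h and 1 h arrays alone, and 1 to 5 with 1 array left out. Near-zero values changed sign: ETV4 was -0.007 with median scaling, and with 1 array left out the ranges crossed 0 for ETV4 (-0.17 to 0.25), SPRED1 (-0.01 to 0.30), ETV5 (-0.026 to 0.19), EGFR (-0.017 to 0.13) and ERBB3 (-0.39 to 0.0051). A bound could be formed only where a probe was detected on no array of 1 group and on some of the other. Other values near the detection limit, such as those of FOS, HEY1, CSF3 and HAS2, are plain differences.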
